A study of Mus musculus with 15 samples.

Results

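The 31 genes described here encode lysosomal proteins, subunits of the vacuolar proton pump and 3 transcription factors of lysosomal and melanosomal genes. They were taken as a named list, without the cathepsins, and make up 31 of the 22342 protein-coding genes with a start on chromosomes 1 to 19 and X. Chromatin of C10 cells was mapped by ChIP-seq for H3K4Me1 (found at enhancers, whether active or not), H3K27Ac (found where promoters and enhancers are active) and H3K27Me3 (deposited by Polycomb at silent genes). C10 derives from HAFTL, a mouse pre-B line, and stably carries C/EBPα fused to the estrogen receptor (C/EBPαER-GFP), and every library, control included, came from this line. Activation of the fusion protein turns these cells into macrophage-like cells, and the comparison asks how the marks at lysosomal genes differ along that path. Induction was with β-estradiol, at 100 nM per the labels and at a micromolar dose in the published methods, in the presence of the cytokines IL-3 and CSF-1, each at 10 nM. Control cells received ethanol. Each mark was mapped at 0, 3, 12, 24 and 48 h post-induction (hpi), with 1 library per mark and time. No difference between times could therefore be set against replicate error, and the intervals given below cover counting error only.

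Lysosomes are acidic organelles in which hydrolases degrade proteins, lipids, glycans and nucleic acids taken up by phagocytosis or delivered by autophagy. The vacuolar ATPase, a rotary pump with a membrane sector (V0) and a cytosolic catalytic sector (V1), acidifies their lumen. TFEB, TFEC and MITF belong to the MiT family of basic helix-loop-helix leucine zipper factors, and TFEB and its relatives activate many lysosomal genes through the CLEAR element, a palindromic E-box. Macrophages are rich in lysosomes, and lymphoid precursors hold fewer.

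The core letters of the CLEAR element, TCACGTGA, were searched from 250 bases before to 50 bases after each start on mm9. The letters are their own reverse complement, so 1 scan covered both strands. They were present at 5 of 31 genes (16.1%), against 253 of 22342 protein-coding starts (1.13%). With 500 bases on either side, Lamp1 joined with a pair of sites, for 6 of 31 genes against 1.9% of all starts. The sites are shown with 11 flanking bases on each side and the core in capitals, because among the letters searched their share had the largest ratio to that of all starts.
Atp6v0d1, chr8:108089950-108089979, minus strand: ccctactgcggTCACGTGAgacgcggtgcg
Atp6v1a, chr16:44139486-44139515, minus strand: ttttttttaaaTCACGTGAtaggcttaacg
Lamp1, chr8:13159209-13159238, plus strand: agaccctcggcTCACGTGAccggcgggcgc
Lamp1, chr8:13159236-13159265, plus strand: cgcggcactgcTCACGTGAcaggcgctgcc
Mcoln1, chr8:3500462-3500491, plus strand: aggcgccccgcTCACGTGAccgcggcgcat
Gla, chrX:131135754-131135783, minus strand: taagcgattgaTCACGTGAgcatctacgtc
Gla, chrX:131135721-131135750, minus strand: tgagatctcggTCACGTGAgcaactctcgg
Hexa, chr9:59387427-59387456, plus strand: ttccctcccgtTCACGTGAccctccgattg

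The Atp6v0d1, Gla and Hexa sites lay 5′ of the annotated gene, at 21, 108, 75 and 36 bp before the start in the order shown. The Atp6v1a site lay 86 bp before the start used and was annotated as intronic. The Mcoln1 site, 16 bp after the start, and both Lamp1 sites, 85 and 112 bp after it, lay in untranslated exon sequence. The shorter letters CACGTG, which include every CLEAR core, occurred at 10 of 31 genes (32.3%) and at 7.77% of all starts. The M-box TCATGTG, a sequence bound by MITF, occurred on either strand at 5 of 31 genes and 3.29% of all starts. GAGGAAG, the core of PU.1 sites, was found at 5 of 31 genes and 13.5% of all starts, and TTGCNNAA, a core of the C/EBP consensus, at 6 of 31 genes and 10.3% of all starts. With 500 bases on either side, CACGTG stood at 10 of 31 genes (17% of all starts) and TCATGTG at 10 (9.84%). GAGGAAG stood at 12 (35.7%) and TTGCNNAA at 13 (29.5%). The CLEAR element is known from lysosomal genes, so its excess in a list of such genes could be foreseen and is no independent evidence. These matches describe letters in the reference and say nothing of binding.

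Values are tags in the 3 kb centred on the start (5 kb for H3K27Me3), after libraries of a mark were thinned to equal depth. A tag is a distinct aligned 36 bp read position. Changes are log2 ratios with 5 tags added, a gene is called higher or lower from 2-fold (log2 of 1), and bracketed ranges are 95% counting intervals of the tag ratio itself. Most of the 31 starts were already acetylated in pre-B cells. At 0 hpi, 25 of 31 starts held a 1 kb bin enriched in H3K27Ac, against 47.5% of all protein-coding starts, and at 48 hpi 27 of 31 did, against 48.5%. For H3K4Me1 the counts were 26 of 31 at 0 hpi (47.5% of all starts) and 25 of 31 at 48 hpi (45.6%). The median H3K27Ac level was 11.2 times the genome mean at 0 hpi and 14.8 times at 48 hpi, against 0.858 and 1.18 times over all starts. Among starts enriched in H3K27Ac at 0 hpi, it was 14.5 and 16.6 times at the 25 listed genes. Over all 10602 such starts it was 15.2 and 12.3 times. H3K27Me3 was enriched at 5 of 31 starts at 0 hpi (22.6% of all starts) and at 6 of 31 at 48 hpi (24.4%).

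**Figure D1:**
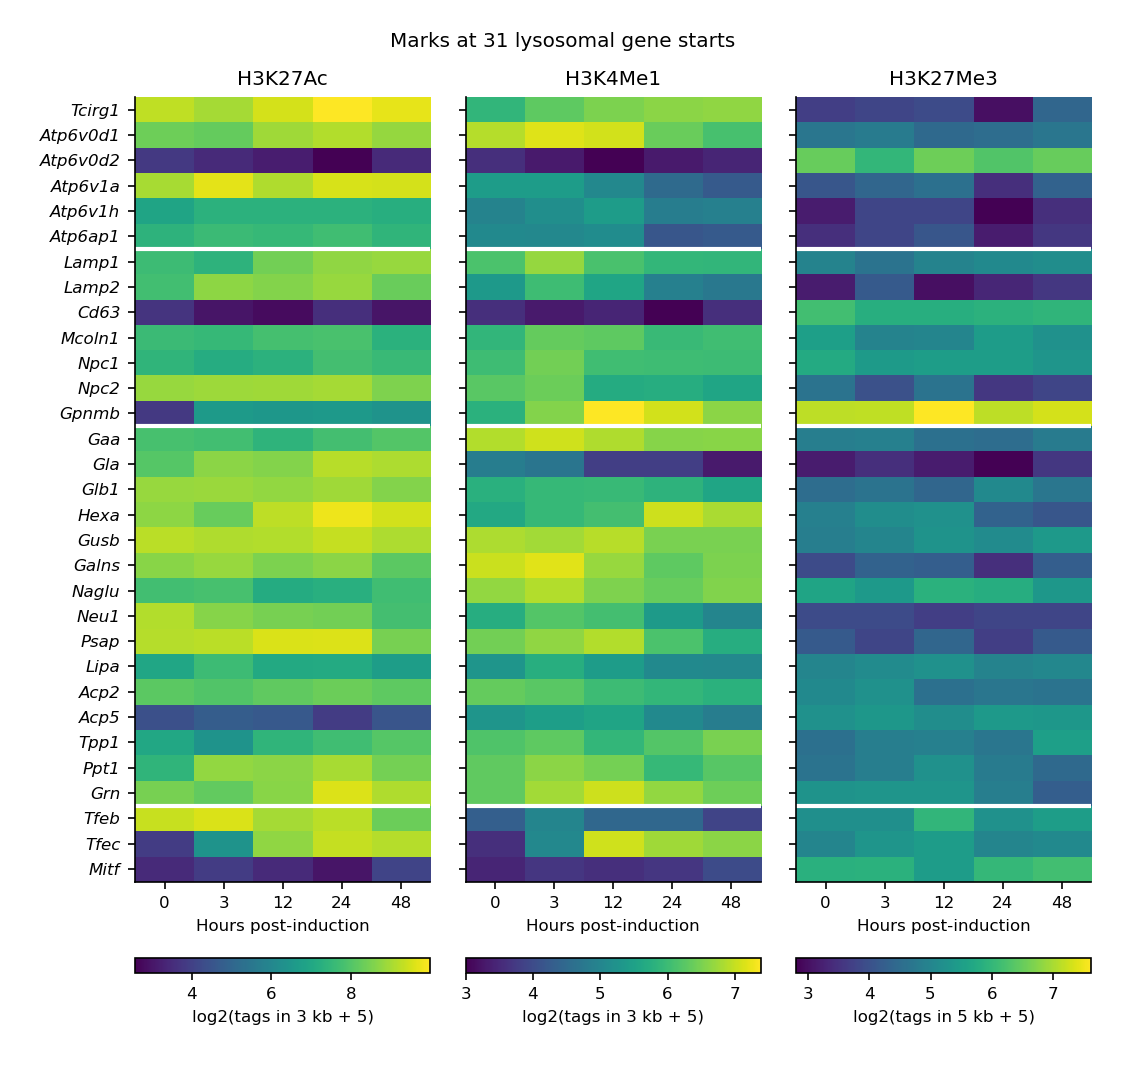
Tags at the 31 starts on a log2 scale with 5 tags added, by hours post-induction, for H3K27Ac, H3K4Me1 (3 kb windows) and H3K27Me3 (5 kb windows); each panel has its own colour scale and white lines separate proton pump, membrane, hydrolase and transcription factor genes. Tfec and Gpnmb started dark in H3K27Ac and brightened, while Atp6v0d2, Cd63, Acp5 and Mitf stayed dark.

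Between 0 and 48 hpi, 6 of 31 starts were at least 2-fold higher in H3K27Ac (5.43% of all starts) and 2 were at least 2-fold lower (9.45% of all starts). The higher starts were Tfec, Gpnmb, Lamp1, Gla, Ppt1 and Tpp1, and the lower ones Neu1 and Tfeb. The median change over the 31 starts was 0.16, against -0.14 over all starts. Among starts enriched in H3K27Ac at 0 hpi, the median was 0.16 for the 25 listed genes and -0.29 for all 10602. Of these starts, 4 of 25 were higher and 2 of 25 lower, against 304 and 1673 of all 10602. In windows of 1 kb, 4 of the 6 higher calls ended, with changes of 0.93 at Lamp1, 0.65 at Gla, 0.53 at Tpp1 and 0.32 at Ppt1. On the lower side, these windows put Psap past 2-fold at -1.09, and Tfeb stood at -2.32. No share of all starts is given for windows of 1 kb. Scaling by background bins left 3 higher and 2 lower (4.64% and 10.3% of all starts), with Gla, Ppt1 and Tpp1 under the limit. Scaling by bins enriched at all 5 times gave 8 higher and 0 lower (9.36% and 5.01% of all starts), and setting the median of all starts to 0 gave 6 higher and 1 lower (6.5% and 6.58% of all starts).

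**Figure D2:**
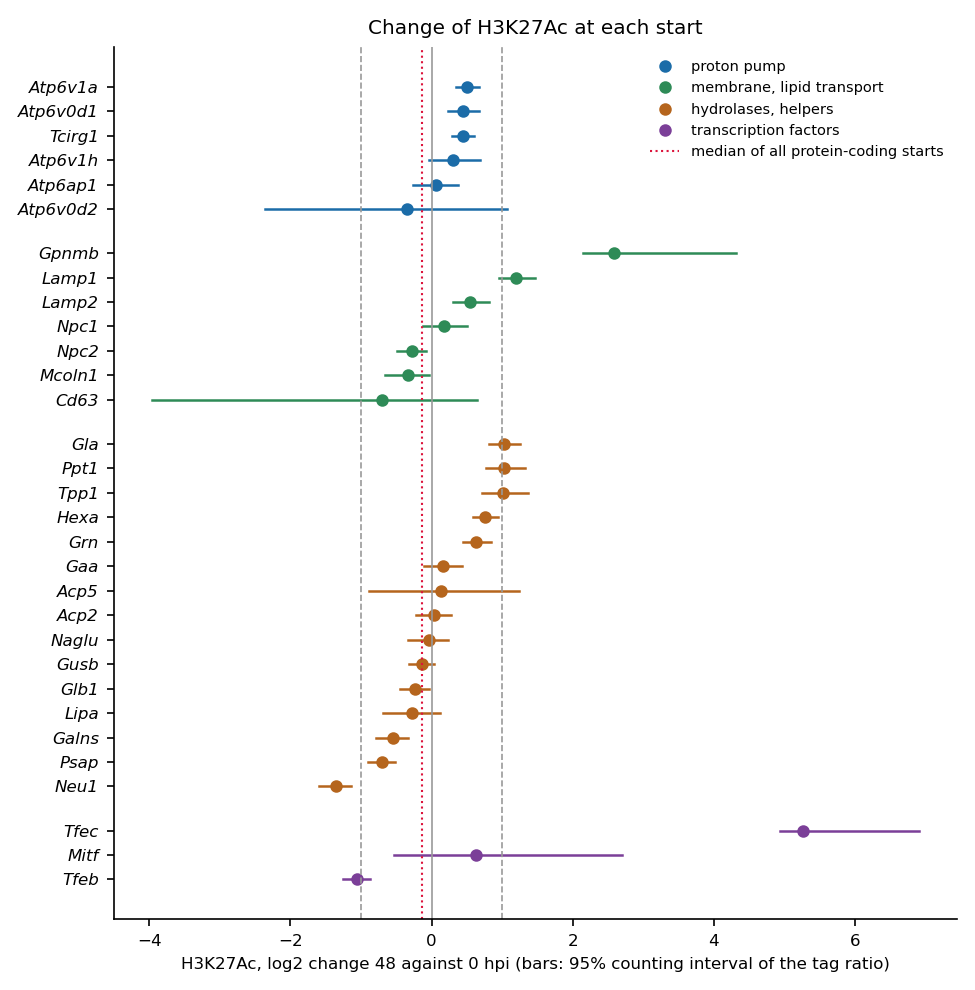
Log2 change of H3K27Ac at each of the 31 starts between 0 and 48 hpi, with 5 tags added (points), and the 95% counting interval of the tag ratio without added tags (bars). Dashed lines mark 2-fold, and the dotted line marks the median of all protein-coding starts at -0.14; Tfec and Gpnmb on the higher side and Neu1 on the lower side lie beyond 2-fold with their whole intervals.

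Proton pump genes held an enriched H3K27Ac bin at 5 of 6 starts at 0 hpi (47.5% of all starts). At 48 hpi, 0 of the 6 passed 2-fold in either direction (5.43% of all starts higher and 9.45% lower). Tcirg1 encodes the a3 subunit of V0, the isoform of osteoclasts and macrophage lysosomes, and its start held 604, 496, 722, 999 and 823 H3K27Ac tags at 0, 3, 12, 24 and 48 hpi. The change to 48 hpi was 0.44 (0.29 to 0.60), with the highest value at 24 hpi. A second annotated Tcirg1 start 1.9 kb downstream in an overlapping window held 713, 514, 591, 580 and 390 tags, a change of -0.86 (-1.05 to -0.69). Atp6v0d1, the ubiquitous d subunit of V0, held 322, 297, 478, 548 and 441 tags, a change of 0.45 (0.24 to 0.67). Atp6v1a, the catalytic A subunit of V1, held 510, 813, 546, 735 and 722 tags, a change of 0.50 (0.34 to 0.67), although Naa50 starts 525 bp away on the opposite strand and shares this window. These 3 starts were above 0 hpi at both 24 and 48 hpi, with intervals at 48 hpi that left out 0. Atp6v1h (V1 regulatory subunit) had 114 tags at 0 hpi and 143 at 48 hpi, and Atp6ap1 (an accessory protein of pump assembly) had 160 and 167, both within counting error. Atp6v0d2, the d subunit isoform of osteoclasts and some macrophages, had between 1 and 9 H3K27Ac tags at all times and was instead decorated with H3K27Me3, at 86 tags at 0 hpi and 86 at 48 hpi.

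Among membrane and lipid transport genes, Gpnmb and Lamp1 passed 2-fold. Gpnmb encodes a type I glycoprotein of phagosomes and melanosomes that is a known MITF target. Its start held 9 H3K27Ac tags at 0 hpi and then 92, 86, 88 and 79, so the gain was complete by 3 hpi, with a change of 2.58 at 48 hpi (2.14 to 4.31). H3K4Me1 there was already present at 51 tags and reached 162 at 12 hpi and 93 at 48 hpi. H3K27Me3 at Gpnmb was the highest of the 31 starts, with 137 tags at the start of induction and 153 at 48 hpi, which is a change of 0.15 (-0.18 to 0.50) in the 5 kb window. Lamp1, a major heavily glycosylated protein of the lysosomal membrane, held 197, 159, 334, 428 and 455 tags, a change of 1.19 (0.96 to 1.46). It was first past 2-fold at 24 hpi and was highest at 48 hpi. Lamp2, its relative that also takes part in chaperone-mediated autophagy, held 208, 415, 387, 451 and 307 tags. It was past 2-fold at 24 hpi (1.10) and stood at 0.55 (0.30 to 0.82) at 48 hpi. Npc1 and Npc2, which hand cholesterol out of the lysosome, had changes of 0.18 (-0.12 to 0.50) and -0.28 (-0.49 to -0.08), and Isca2 starts 158 bp from Npc2 on the opposite strand. Mcoln1, the calcium channel TRPML1, had a change of -0.33 (-0.66 to -0.03). Scaled by bins enriched at all 5 times, Npc2 stood at 0.12 and Mcoln1 at 0.07. Cd63, a tetraspanin of late endosomes, held 2 to 8 H3K27Ac tags throughout and 67 and 57 H3K27Me3 tags at 0 and 48 hpi.

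Of the hydrolase genes and their helpers, 3 of 15 were higher (5.43% of all starts) and 1 of 15 lower (9.45% of all starts), with a median change of 0.03, against -0.14 over all starts. Ppt1, palmitoyl-protein thioesterase, held 166, 433, 408, 506 and 342 tags and was past 2-fold from 3 hpi (1.36) to 48 hpi (1.02, 0.77 to 1.32). Gla, α-galactosidase A, held 257, 404, 384, 578 and 525 tags, a change of 1.02 (0.81 to 1.25), and Hnrnph2 starts 54 bp away on the opposite strand. H3K4Me1 over the same window fell from 24 tags at 0 hpi to 5 at 48 hpi (-1.54). Tpp1, tripeptidyl peptidase, held 123, 79, 165, 202 and 253 tags, a change of 1.01 (0.72 to 1.36), with a value at 3 hpi below that at 0 hpi. Hexa, the α subunit of β-hexosaminidase, held 412, 299, 603, 879 and 700 tags. Its change was 1.08 at 24 hpi and 0.76 (0.59 to 0.94) at 48 hpi, and its H3K4Me1 rose from 45 to 108 tags (1.18, 0.75 to 1.80). Grn, the progranulin gene, held 346, 288, 401, 756 and 539 tags, with a change of 1.12 at 24 hpi and 0.63 (0.44 to 0.84) at 48 hpi.

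Among the other hydrolase genes, Neu1 was the one at least 2-fold lower. Neu1, the lysosomal sialidase, held 549, 389, 344, 335 and 213 tags, each below the one before, with a change of -1.35 (-1.60 to -1.14). Psap, the precursor of the saposins, held 567, 586, 745, 760 and 348 tags, above 0 hpi until 24 hpi and below it at 48 hpi, a change of -0.70 (-0.90 to -0.51). At the internal Psap start 6.8 kb downstream H3K27Ac went from 1054 to 358 tags (-1.54, -1.73 to -1.38). Galns had a change of -0.55 (-0.78 to -0.33) in a window shared with Trappc2l. The changes at Glb1, Lipa, Gusb, Naglu, Acp2 and Gaa lay between -0.27 and 0.16, and of these 6 only the interval of Glb1 (-0.44 to -0.04) left out 0. Scaling by bins enriched at all 5 times turned the sign at Glb1, Lipa, Gusb and Naglu, to 0.17, 0.13, 0.26 and 0.36. Acp5, the tartrate-resistant phosphatase known from osteoclasts and alveolar macrophages, had 16 tags at 0 hpi and 18 at 48 hpi at the start used. Each of its 3 annotated starts had 1 transcript, and the one furthest 5′ was taken. Its downstream starts at 3.9 and 5.1 kb were acetylated in pre-B cells and fell in H3K27Ac, from 321 to 102 tags (-1.61, -1.99 to -1.33) and from 319 to 116 (-1.42, -1.78 to -1.15). The windows of both downstream starts overlap.

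Of the 3 MiT factor genes, Tfec was at least 2-fold higher, Tfeb at least 2-fold lower and Mitf neither. Tfec, the family member known from macrophages, held 10, 78, 424, 640 and 568 H3K27Ac tags at 0, 3, 12, 24 and 48 hpi. The 0 hpi count had a Poisson interval of 4.8 to 18.4 and the 48 hpi count one of 522.2 to 616.7. The change of 5.26 (4.94 to 6.90) was the largest of the 31 starts. H3K4Me1 at Tfec held 7, 28, 129, 103 and 93 tags (3.03, 2.63 to 5.09). At equal depth, H3K4Me1 there was highest at 12 hpi and H3K27Ac at 24 hpi. H3K27Me3 was near the genome mean, at 27 tags at 0 hpi and 29 at 48 hpi. Tfec and Gpnmb were the starts that went from no enriched H3K27Ac bin at 0 hpi to an enriched bin at 48 hpi. For this reason the promoters of both are shown, from 250 bases before to 50 bases after the start on mm9 (5′ to 3′ on the strand of the gene), with the PU.1 letters GAGGAAG, here as their reverse complement, in capitals.
Tfec, chr6:16848392-16848691, minus strand: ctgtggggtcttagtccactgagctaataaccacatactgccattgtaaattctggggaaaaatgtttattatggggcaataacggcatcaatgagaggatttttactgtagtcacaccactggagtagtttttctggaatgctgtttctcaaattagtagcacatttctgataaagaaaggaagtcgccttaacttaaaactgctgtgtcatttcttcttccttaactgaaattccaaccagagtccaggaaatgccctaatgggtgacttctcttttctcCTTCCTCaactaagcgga
Gpnmb, chr6:48986267-48986566, plus strand: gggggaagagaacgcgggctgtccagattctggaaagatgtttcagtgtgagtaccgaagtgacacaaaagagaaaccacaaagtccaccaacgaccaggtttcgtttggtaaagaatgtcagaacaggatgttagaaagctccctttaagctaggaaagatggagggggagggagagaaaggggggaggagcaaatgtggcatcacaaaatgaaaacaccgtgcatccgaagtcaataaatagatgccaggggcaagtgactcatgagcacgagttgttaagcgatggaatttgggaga

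The PU.1 letters in the Tfec window began 32 bp after the start, and the letters of the other motifs searched were not present in either window. RefSeq promoters were at hand for 27 of the 31 genes, and each of these genes had a RefSeq start within 500 bp of the start used.

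Tfeb moved in opposite directions along the gene. Among its 9 annotated starts, the one used had the largest number of transcripts, at 3 (chromosome 17, position 47874549). There H3K27Ac held 648, 740, 498, 583 and 310 tags, a change of -1.05 (-1.26 to -0.87). The start 0.6 kb upstream lost more, from 366 to 108 tags (-1.72, -2.08 to -1.45). Internal starts gained. The start at +16.7 kb held 229, 625, 1054, 1159 and 892 tags, a change of 1.94 (1.75 to 2.18). The start at +25.6 kb held 43, 183, 299, 452 and 248 tags (2.40, 2.06 to 3.03). Towards the 3′ end, the starts at +45.3 and +48.1 kb rose from 15 to 289 tags (3.88, 3.52 to 5.12) and from 19 to 202 tags (3.11, 2.73 to 4.17). At +31.6 kb a window already high at 577 tags peaked at 1444 at 24 hpi and held 893 at 48 hpi, a change of 0.63 (0.48 to 0.78). Of the 9 annotated Tfeb starts, the 3 within 1.3 kb of the start used were thus below 0 hpi at 48 hpi and the 6 further downstream were above it. H3K4Me1 at 0 and 48 hpi was 15 and 10 tags at the start used. It was 275 and 254 at +16.7 kb, 122 and 453 at +25.6 kb and 10 and 97 at +48.1 kb. Whether the downstream windows act as promoters or enhancers was not tested.

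Mitf, the melanocyte and osteoclast member, held 12 H3K27Ac tags or fewer at 3 of its 4 annotated starts. The start used held 6, 10, 6, 3 and 12 H3K27Ac tags, and 53 and 67 H3K27Me3 tags at 0 and 48 hpi. The 5′-most start, at -122.7 kb, held 50, 122, 86, 69 and 106 tags (1.01, 0.59 to 1.60). Regions between the Mitf starts are described with the gained regions.

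**Figure D3:**
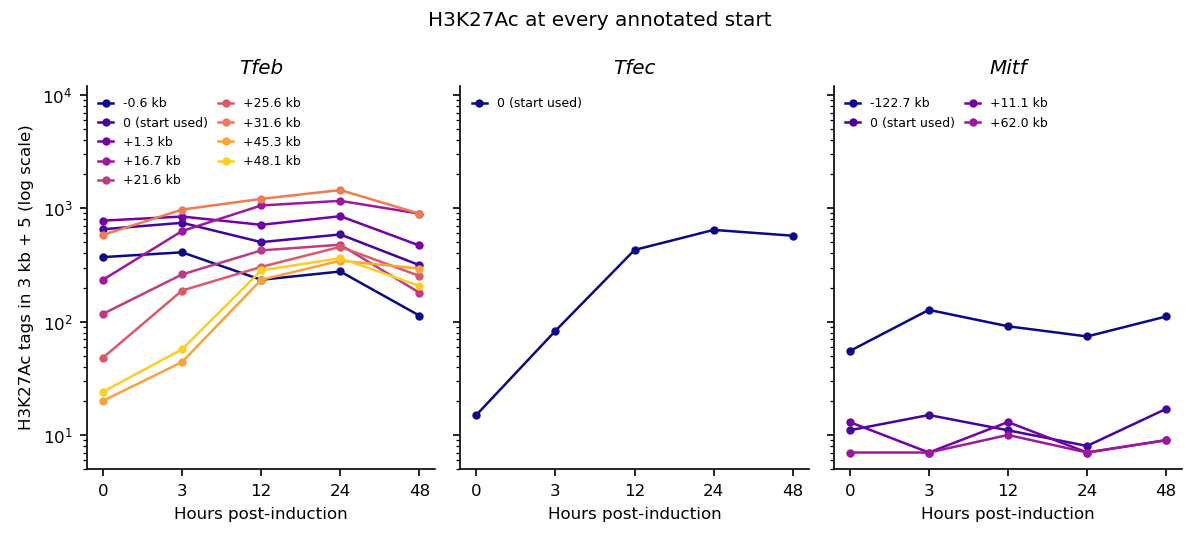
H3K27Ac tags in 3 kb, with 5 added, on a log scale at every annotated start of Tfeb (9 starts), Tfec (1) and Mitf (4) by hours post-induction; labels give the distance from the start used. The Tfeb starts near 0 are lower at 48 than at 0 hpi. At equal depth, the Tfeb starts from +16.7 kb on peak at 24 hpi and Tfec climbs from 10 to 640 tags. Other scalings were not applied to the internal starts.

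Changes were also counted by position, by splitting the 5 kb around each start into 1 kb segments in the direction of transcription, a split made after the values were seen. From 1 to 2 kb downstream of the start, 13 of 31 genes were at least 2-fold higher in H3K27Ac at 48 hpi, against 8.8% of all starts. These were Atp6v0d1, Atp6v1a, Atp6v1h, Lamp1, Lamp2, Mcoln1, Npc1, Gpnmb, Gaa, Gla, Tpp1, Ppt1 and Tfec. From 2 to 3 kb downstream, 9 of 31 were (11.2% of all starts), and from 1 to 2 kb upstream, 7 of 31 (8.14% of all starts). In the central segments, 7 of 31 were from the start to 1 kb downstream (3.75% of all starts) and 5 of 31 from 1 kb upstream to the start (4.48% of all starts). At least 2-fold lower, in order from 2 kb upstream to 3 kb downstream, were 0, 1, 4, 2 and 1 of 31 (6.75%, 9.15%, 8.31%, 7.1% and 4.56% of all starts). Among starts enriched at 0 hpi, the higher counts in the same order were 5, 3, 5, 11 and 7 of 25 (11.9%, 3.92%, 3.07%, 13.6% and 18.9% of all 10602). At equal depth, H3K4Me1 had the opposite balance in the first 2 kb downstream. From the start to 1 kb, 8 of 31 were at least 2-fold lower (8.56% of all starts) and 1 higher (2.71%). From 1 to 2 kb, 8 of 31 were lower (7.22% of all starts) and 1 higher (3.85%). Among starts enriched in H3K27Ac at 0 hpi, 8 of 25 were lower in each of these segments (14.3% and 11.3% of all 10602). The H3K4Me1 segments were not counted under other scalings, and background bins would shift their 48 hpi values by 0.55 in log2. Further out H3K4Me1 had more starts higher than lower. From 2 to 3 kb downstream, 8 were higher and 4 lower (6.72% and 6.49% of all starts). From 1 to 2 kb upstream, 6 were higher and 1 lower (5.54% and 6.63% of all starts). The mean H3K27Ac count from 1 to 2 kb upstream went from 13.4 to 37.3 tags per start at 48 hpi, and from 13.7 to 34.5 without Tfec, against 19.4 to 17.1 at all starts. Among starts enriched at 0 hpi it went from 16.2 to 40.8 at the 25 listed genes and from 38.8 to 32.1 at all 10602. From 1 to 2 kb downstream, where the count of genes was highest, the mean was 68.6 at 0 hpi and 76.7 at 48 hpi, and 70.7 and 71.3 without Tfec. From the start to 1 kb downstream it was 142.6 at 0 hpi and 146.3 at 48 hpi. The count of 13 was 12 under scaling by background bins (7.58% of all starts) and 13 under scaling by bins enriched at all 5 times (13.6% of all starts).

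**Figure D4:**
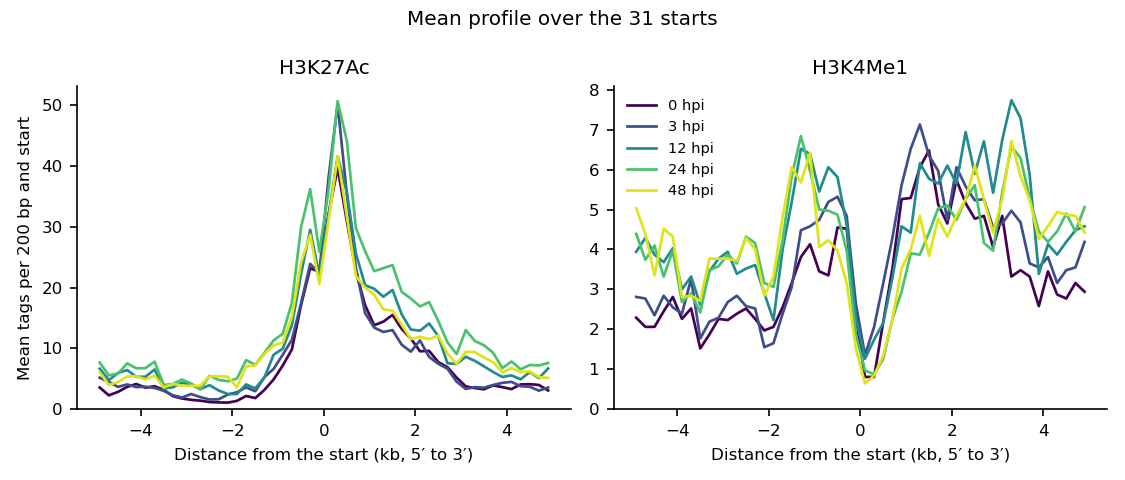
Mean tags per 200 bp and start over the 31 starts, against distance from the start in the direction of transcription, for H3K27Ac and H3K4Me1 at 5 times. The H3K27Ac summit lies just downstream of the start at 0 and 48 hpi, and the upstream shoulder is higher at 48 than at 0 hpi, and H3K4Me1 dipped at the start at every time.

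By time, 3 of 31 starts were at least 2-fold above 0 hpi in H3K27Ac at 3 hpi (Ppt1, Gpnmb and Tfec; 4.26% of all starts) and the same 3 at 12 hpi (4.25%). At 24 hpi, 8 of 31 were (4.68% of all starts), adding Lamp1, Lamp2, Gla, Hexa and Grn. Scaling by background bins made this 12 of 31 (12.8% of all starts), and scaling by bins enriched at all 5 times left 8 (4.79%). No start was 2-fold lower at 3 or 12 hpi (1.84% and 3.2% of all starts), and 1 was at 24 hpi, Atp6v0d2 with 9 tags at 0 hpi (8.73% of all starts). Among starts enriched at 0 hpi, 6 of 25 were higher and 0 lower at 24 hpi, against 533 and 916 of all 10602. H3K27Ac was highest at 24 or 48 hpi at 20 of 31 starts, against 24.3% of all starts. It was highest at 24 hpi itself at 16 of 31, against 13.7% of all starts and 24.7% of those enriched at 0 hpi. The 24 hpi H3K27Ac library held a larger share of its tags in enriched bins (78.1%) than the other 4 (63.2% to 69.5%). The split between 24 and 48 hpi changed with the scaling. Bins enriched at all 5 times put 3 starts highest at 24 hpi (5.43% of all starts) and 18 at 48 hpi (27.1%), and background bins put 27 at 24 hpi (46.6% of all starts). Together 24 and 48 hpi held 21 and 28 of 31 starts under those scalings, against 32.5% and 55.2% of all starts. Among starts enriched at 0 hpi, both times together held 18 and 24 of 25, against 34.6% and 79.2% of all 10602.

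New H3K27Ac regions appeared within or near most of these genes. A region is a run of enriched 1 kb bins joined over at most 1 bin, and a gained region is one present at 48 hpi with no overlapping region at 0 hpi. Within the gene and 20 kb on either side, 22 of 31 genes had at least 1 gained region (45.5% of all protein-coding genes) and 2 had a lost region (17.9%). The count with a lost region was 9 with flanks of 50 kb (29% of all genes) and 5 with a Poisson threshold of 1e-05 (16.9% of all genes). The listed genes were longer, with a median of 22.9 kb against 15.4 kb for all genes, and the part of length in these shares was not tested. Placed by their highest 1 kb bin, the 53 gained regions lay inside the listed gene in 26 cases, in another protein-coding gene in 12 and in no protein-coding gene in 15. Of the 27 placed outside, 2 still reached into the listed gene, at Gpnmb, where the region covered the start described above, and at Hexa. In the 3 kb at their summits, median H3K27Ac was 10, 16, 26, 46 and 54 tags at 0, 3, 12, 24 and 48 hpi, and median H3K4Me1 was 14, 14, 32, 60 and 70. H3K27Ac at the summits was at least 2-fold higher at 46 of 53 regions (86.8%), against 77.7% of all 18336 gained regions of the genome. The other 7 did not pass 2-fold at any time. Both marks were at least 2-fold higher at 37 of 53 regions (69.8%), against 10303 of all 18336 (56.2%). H3K27Ac was first past 2-fold at 3 hpi at 15 of 53 (28.3%) and at 12 hpi at 17 (32.1%), against 14.7% and 22.8% of all gained regions. It was first past 2-fold only at 48 hpi at 4 of 53 (7.55%), against 26.3% of all. Because a gained region was chosen by its H3K27Ac at 0 and 48 hpi, the size of that gain is a description.

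Tfec had 7 gained regions, more than any other listed gene. The widest covered 20 kb over the start, with a summit 6.9 kb inside the gene at 7, 39, 186, 526 and 616 H3K27Ac tags. H3K4Me1 there went from 7 to 160 tags and was 161 by 12 hpi. Mitf had 4 gained regions, among them 1 at -100.3 kb, within the longer transcripts, with 17, 41, 88, 265 and 232 tags. Tfeb had 0 gained regions by this definition, because both of its regions at 48 hpi touched older ones. One ran over 38 kb from the start and overlapped 3 regions of 0 hpi, and the other covered 19 kb, from 39.5 to 58.5 kb, and overlapped 1 region of 0 hpi at 54.5 to 56.5 kb. The starts at +45.3 and +48.1 kb lay in the second, outside the region of 0 hpi. Near Glb1, β-galactosidase, whose start had a change of -0.23, a region 87.3 kb downstream of the start and beyond the gene end held 7, 116, 334, 485 and 193 tags. Within Galns, a sulfatase whose start had a change of -0.55, regions at +25.8 and +17.8 kb went from 17 to 284 and from 22 to 138 tags, and these also lie in the overlapping gene Gm20388. A region 26.6 kb downstream of the Tcirg1 start, inside Chka, held 10, 21, 158, 328 and 171 tags. Atp6v1a had 4 gained regions in its gene body, and the 1 at +34.9 kb was highest early, with 10, 110, 95, 36 and 57 tags. Lamp2 gained regions inside the gene later, with 6, 10, 24, 82 and 101 tags at +27.1 kb. Both regions gained beside Acp2 lay in the neighbouring gene Nr1h3, which encodes the oxysterol receptor LXRα and starts 51 bp from Acp2, and rose from 8 to 113 and from 13 to 91 tags. The lost regions were at Npc1 (54 to 20 tags) and Galns (75 to 26 tags).

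**Figure D5:**
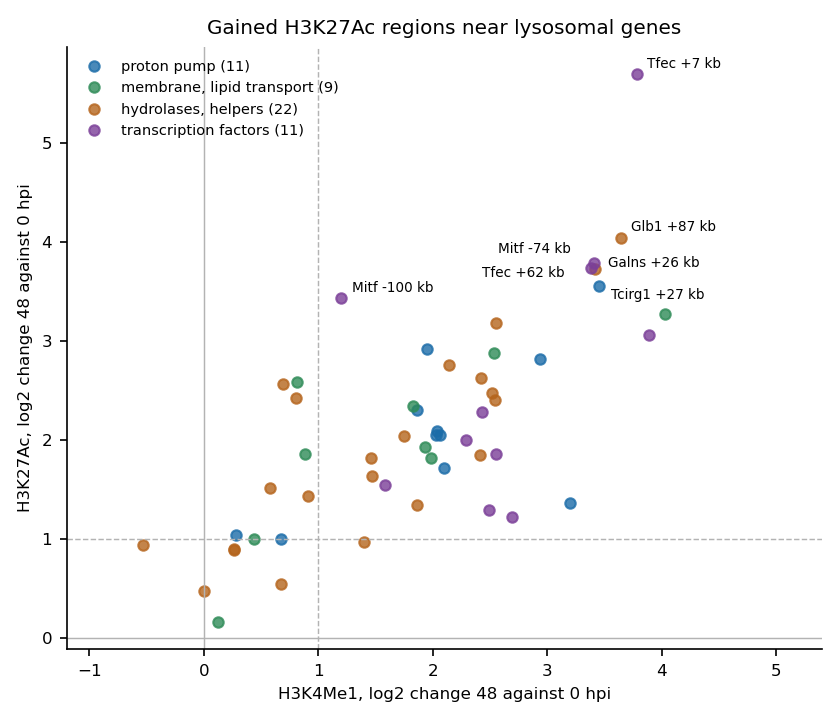
Log2 change between 0 and 48 hpi of H3K27Ac against that of H3K4Me1, in 3 kb at the summits of the 53 gained regions near the listed genes, coloured by the role of the gene; dashed lines mark 2-fold. Regions with the larger gains of H3K27Ac also gained H3K4Me1, with Tfec +7 kb at the top.

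At the starts themselves, fewer genes passed 2-fold in the other marks. H3K4Me1 was at least 2-fold higher at 2 of 31 starts (Tfec and Hexa; 3.35% of all starts) and at least 2-fold lower at 2 (Gla and Atp6v1a; 9.58% of all starts). The median change was -0.24, against -0.27 over all starts, and its direction turned with the scaling. Background bins gave a median of 0.25 with 4 higher and 1 lower (all starts 0.05, with 7.01% and 4.34%), and setting the median of all starts to 0 gave 0.03 with 4 higher and 1 lower (4.94% and 3.32% of all starts). At Gla and Atp6v1a the H3K27Ac changes were 1.02 and 0.50, and Atp6v1a went from 38 to 14 H3K4Me1 tags (-1.18, -2.44 to -0.52). H3K27Me3 was at least 2-fold higher at 0 of 31 starts (0.882% of all starts) and lower at 1, Grn with 34 and 14 tags (1.49% of all starts). These H3K27Me3 counts rest on few tags, and another random thinning, windows of 3 kb and the tags as deposited each gave 2 higher and 0 lower. Tfeb, Mitf, Cd63, Atp6v0d2 and Gpnmb held an enriched H3K27Me3 bin at both 0 and 48 hpi, and Tpp1 joined them at 48 hpi with 41 tags after 19 at 0 hpi. Such a bin lies on a fixed grid with its centre in the window, and can reach past the window. The Tfeb window itself was near the genome mean, with 32 and 40 tags at 0 and 48 hpi (1.05 and 1.31 times).

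A list of 54 other lysosomal genes, all found in the annotation, was read at the same window. H3K27Ac was at least 2-fold higher at 4 of 54 (5.43% of all starts) and lower at 5 of 54 (9.45% of all starts), counts near those shares, with a median change of 0.07. The counts moved to 1 higher with background bins (4.64% of all starts) and to 2 higher and 3 lower in windows of 1 kb. Bins enriched at all 5 times gave 8 higher and 3 lower, against 9.36% and 5.01% of all starts. The median was then 0.48, against 0.10 over all starts. The higher ones were Cd68 (macrosialin, also in the macrophage list, 159 to 480 tags), Fuca1 (α-fucosidase, 180 to 380), Hyal1 (hyaluronidase, 9 to 24) and Slc11a1 (the phagosomal metal transporter NRAMP1, 210 to 437). The lower ones were Sgsh (216 to 74), Gnptab (161 to 56), Gm2a (186 to 66), Arsb (408 to 164) and Pla2g15 (560 to 247), of which Gnptab makes the mannose 6-phosphate tag that sorts hydrolases. By role, 0 of the 12 other proton pump genes passed 2-fold at 48 hpi, with a median change of 0.33, and all 12 were above 0 hpi at 24 hpi (median 0.61). At that time, in the library with the largest share of tags in enriched bins, 7739 of all 22342 starts and 5166 of the 10602 enriched at 0 hpi were above 0 hpi. Of 21 other hydrolase genes, 2 were higher and 4 lower (median -0.21). Of 13 other membrane genes, 2 were higher and 0 lower (median 0.23). The 5 sorting genes had 1 lower, and 0 of 3 regulators passed 2-fold.

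Cell type markers were read in the same libraries. All 8 macrophage markers were at least 2-fold higher in H3K27Ac at 48 hpi (median change 2.31) and all 8 pre-B cell markers were at least 2-fold lower (median -1.60), against a median of 0.16 at the 31 lysosomal starts. Of 4 markers each, T cell markers had 0 higher and 1 lower, erythroid markers 0 of either and granulocyte markers 1 higher. In bulk chromatin, a mark gained in more cells and a mark gained more strongly per cell cannot be told apart.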

How the data were processed

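The 15 libraries, 1 per mark and time, were grouped by their labels. The authors aligned Illumina reads to mm9 with Eland or Bowtie without mismatches and removed identical and multiply aligned tags. Which aligner served which library is not given in the sources used here. The deposited files hold tag positions (chromosome, start, end of 36 bp tags, no strand), not counts: between 11.04 and 17.85 M per H3K4Me1 library, between 15.93 and 18.56 M per H3K27Ac library and between 15.36 and 31.56 M per H3K27Me3 library. They differ in how many identical tags remain, so 1 tag per position was kept here.

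Tags were placed 18 bp from their start, and libraries were thinned to 10.91 M (H3K4Me1), 15.22 M (H3K27Ac) and 15.34 M (H3K27Me3). Gene starts came from GENCODE vM1 on NCBIM37 (mm9), as the start with the largest number of protein-coding transcripts within 500 bp. That number need not be a majority of the transcripts. Ties went to the start furthest 5′. Tfeb and Tfec stand there under older symbols (2 of 31). Glb1 has a pair of gene entries, and the one with more transcripts was used. Promoter sequences were read from NCBIM37, and RefSeq promoters, built on GRCm38, were placed on it by exact match. A bin of 1 kb (5 kb for H3K27Me3) was enriched at a Poisson tail below 0.001 over the mean of mappable bins (at least 13, 16 and 50 tags for H3K4Me1, H3K27Ac and H3K27Me3). Intervals are exact Poisson for counts and exact conditional binomial for ratios. With no replicates, no test was run and no p-value is given. The script for the calls was tested on simulated data. Python 3.11.15, numpy 2.4.6, pandas 2.3.3, scipy 1.17.1 and matplotlib 3.10.9 were used. All 31 genes are named, and other lysosomal genes only past 2-fold. Members, lists and settings were chosen with earlier results of these data known. Alternatives in window, scaling, threshold and tag handling are given in the closing section.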

Additional observations from a re-analysis of the deposited data

How the results depend on the processing

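Of 310 values of single genes under the alternatives, 262 stayed within the counting interval. A change of sign was counted only at starts past 2-fold in the main setting, and there 0 values changed sign. Under 2-fold, signs did turn at several starts, as at Mcoln1 (-0.41 to 0.07) and Npc1 (-0.23 to 0.59). Of 167 summary values, 119 stayed within set limits and 48 did not. Counts had to stay within 1.5 times. Medians had to stay within an interval of the median drawn from the spread among the listed genes, which is not counting error. Tfec (4.73 to 5.69) and Gpnmb (2.04 to 3.00) were the starts at least 2-fold higher in H3K27Ac under all 10 alternatives run for single genes. The range was 0.93 to 1.59 for Lamp1, 0.65 to 1.42 for Gla, 0.53 to 1.42 for Tpp1, 0.32 to 1.43 for Ppt1, -1.48 to -0.94 for Neu1 and -2.32 to -0.65 for Tfeb.

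For H3K27Ac at the 31 starts (6 higher, 2 lower, median 0.16), windows of 6 kb gave 1 lower and windows of 1 kb gave 2 higher. Scaling by background bins gave 3 higher, scaling by bins enriched at all 5 times gave 0 lower and a median of 0.57, and setting the median of all starts to 0 gave 1 lower. A limit of 1.5-fold gave 4 lower, and a limit of 3-fold gave 2 higher and 0 lower. For all marks in this section, shares of all starts are not given for other windows, fold limits, added tags or tag handling. Those counts can therefore not be set against the genome. For H3K4Me1 (2 higher, 2 lower, median -0.24), windows of 6 kb gave 1 lower and windows of 1 kb gave 1 higher. Background bins gave 4 higher, 1 lower and a median of 0.25, and the median of all starts at 0 gave 4 higher, 1 lower and a median of 0.03. A limit of 1.5-fold gave 4 higher and 8 lower, and a limit of 3-fold gave 1 higher and 0 lower. The median H3K4Me1 change over all starts was -0.27. For H3K27Me3 (0 higher, 1 lower), windows of 10 kb gave 1 higher and 0 lower. Windows of 3 kb, another random draw and the tags as deposited each gave 2 higher and 0 lower. Background bins gave 1 higher and 0 lower (1.54% and 0.806% of all starts). With 1 added tag, 1 was higher and 3 lower. A limit of 1.5-fold gave 2 higher and 3 lower, and a limit of 3-fold gave 0 lower.

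For the 54 other lysosomal genes (4 higher, 5 lower, median 0.07), windows of 1 kb gave 2 higher and 3 lower. Background bins gave 1 higher (4.64% of all starts). Bins enriched at all 5 times gave 8 higher, 3 lower and a median of 0.48 (all starts 9.36%, 5.01% and 0.10). With 1 added tag, 8 were lower. Lost regions touched 9 genes with flanks of 50 kb and 5 with a Poisson threshold of 1e-05, against 2 (29%, 16.9% and 17.9% of all genes). The letters CACGTG in place of TCACGTGA gave 10 genes against 5. H3K27Ac was highest at 24 hpi at 27 starts with background bins (46.6% of all starts) and at 3 with bins enriched at all 5 times (5.43%), against 16 (13.7%), alternatives chosen after seeing the data. Among all starts enriched at 0 hpi, those shares were 78.5%, 8.55% and 24.7%. The cause of these differences was not tested. No paired analysis was possible because there were no replicates, with a single library for every mark at every time. At counts under 20 tags, as at Atp6v0d2, Cd63 and Mitf in H3K27Ac, counting error alone spans several-fold.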
